A study of Mus musculus with 2 samples.

Results

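MicroRNAs numbered from miR-1000 to miR-2999 were examined in microvesicles (MVs) of mouse mesenchymal stem cells (MSCs). Every deposited entry whose first name carries a number from 1000 to 2999 was taken, whatever its intensity, which gave 86 of the 831 mouse entries. A further 601 entries had a number under 1000, 129 had a number of 3000 or more, and 15 were let-7 entries. The MSCs were primary bone marrow cells of 4-week-old male C57BL/6 mice at the third passage, grown in serum-containing DMEM/F12 for 48 h. EPO-MVs came from MSCs that also received erythropoietin (EPO, the hormone that drives red cell formation) at 100 IU/ml, and MSC-MVs came from MSCs without it. How many mice or cultures went into a preparation is not given in the sources used here. The MVs were pelleted from the culture supernatant by ultracentrifugation, and their total RNA was hybridized to miRCURY LNA arrays, which capture short RNAs with probes that contain locked nucleic acids. The deposited data hold 1 array for each kind of MV, so no ratio has a replicate error, no test was run, and EPO, the array and the vesicle preparation cannot be told apart as sources of a difference.

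A mature miRNA is a short strand cut from one side (the 5p or 3p arm) of an RNA hairpin, and it guides silencing of messenger RNAs mainly through its seed, bases 2 to 8 from its 5′ end. Numbers were given in order of naming, so numbers above miR-1000 were mostly assigned once deep sequencing of small RNAs became common. Many of these hairpins lie in introns of protein-coding genes, and several come from unusual precursors such as short spliced introns, small nucleolar RNAs or transfer RNAs. MVs can carry miRNAs from MSCs to other cells, and the study asked whether EPO in the culture changes the miRNAs they hold.

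Of the 86 entries, 12 were bright on both arrays, meaning at or above the 75th percentile of all entries on each array (a value of 1.04 for EPO-MVs, 1.08 for MSC-MVs). In order of EPO-MV intensity these were miR-1983, miR-2137, miR-1192, miR-1264-3p, miR-1897-5p, miR-1957a, miR-1843b-3p, miR-1902, miR-1971, miR-1947-3p, miR-1839-3p and miR-1961. For 8 of them RefSeq holds a mature sequence under the same name. These sequences are shown because they carry the names of the brightest entries of the group, and the probes themselves were not checked. The seed is in capitals, and the position is in mouse GRCm38.p6.
miR-1983, chr13:21896930-21896950, minus strand: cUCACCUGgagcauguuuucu
miR-2137, chrX:72992113-72992133, plus strand: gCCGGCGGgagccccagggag
miR-1192, chr19:23149450-23149471, plus strand: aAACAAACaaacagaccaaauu
miR-1264-3p, chrX:147010655-147010676, plus strand: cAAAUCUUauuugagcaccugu
miR-1843b-3p, chr1:159340400-159340419, plus strand: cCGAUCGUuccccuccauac
miR-1902, chr2:104428871-104428892, minus strand: aGAGGUGCaguaggcaugacuu
miR-1947-3p, chr16:33105411-33105432, plus strand: gCACUGAGcuagcucucccucc
miR-1961, chr5:92788465-92788481, minus strand: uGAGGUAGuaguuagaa

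The brightest member was miR-1983, with a normalized intensity of 45.4 in EPO-MVs against 39.3 in MSC-MVs, a ratio of 1.16. It was the only member among the 10 brightest entries of both arrays, in place 7 for EPO-MVs and place 10 for MSC-MVs of 831. In the RefSeq annotation its mature strand overlaps n-TItat14, an isoleucine transfer RNA gene, with bases 1 to 13 of its 21 bases inside that gene. The strand of that gene was not compared with that of the miRNA. Intensities describe the signal of a probe, which also depends on how tightly the probe binds, so the order of entries is an order of signals and not of molecule numbers.

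The next brightest was miR-2137, with 12.4 in EPO-MVs against 10.6 in MSC-MVs (ratio 1.16), whose hairpin lies within Zfp185. Its sequence holds 85.7% G and C. The values of miR-1192, which lies within Klf9, the gene of a Krüppel-like transcription factor, were 8.64 and 7.57 (ratio 1.14). Its sequence holds only 27.3% G and C and carries the stretch AAAC 3 times.

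Among the other bright members, miR-1264-3p, which lies within the serotonin receptor gene Htr2c, had 4.06 in EPO-MVs against 4.13 in MSC-MVs (ratio 0.984). For miR-1897-5p the values were 4.03 and 3.38 (ratio 1.19), and for miR-1957a they were 3.64 and 3.17 (ratio 1.15). For miR-1843b-3p they were 2.55 and 2.13 (ratio 1.196). All bases of this strand lie within Scarna3a, a gene of a guide RNA of the Cajal body, which itself lies within the ubiquitin ligase gene Cop1. The entry miR-1902, within the kinase gene Hipk3, had 2.42 and 2.32 (ratio 1.04), and miR-1971 had 2.14 and 2.05 (ratio 1.04). For miR-1839-3p, whose hairpin is known to be cut from a small nucleolar RNA, the values were 1.69 and 1.53 (ratio 1.11).

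The highest ratio of the 12 belonged to miR-1947-3p, with 1.96 in EPO-MVs against 1.28 in MSC-MVs (ratio 1.53), the single bright member past 1.5-fold (8.33%). Over all 202 bright entries, 2 (0.99%) were higher and 14 (6.93%) lower by that measure. After re-centring on the median ratio of all entries the ratio of miR-1947-3p was 1.48, below that threshold. Its hairpin lies within Lmln, the gene of a metallopeptidase. The lowest ratio belonged to miR-1961, with 1.13 and 1.23 (ratio 0.921), whose hairpin lies within the actin regulator gene Shroom3. Bright members thus spanned ratios of 0.921 to 1.53, with a median of 1.14.

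**Figure D1:**
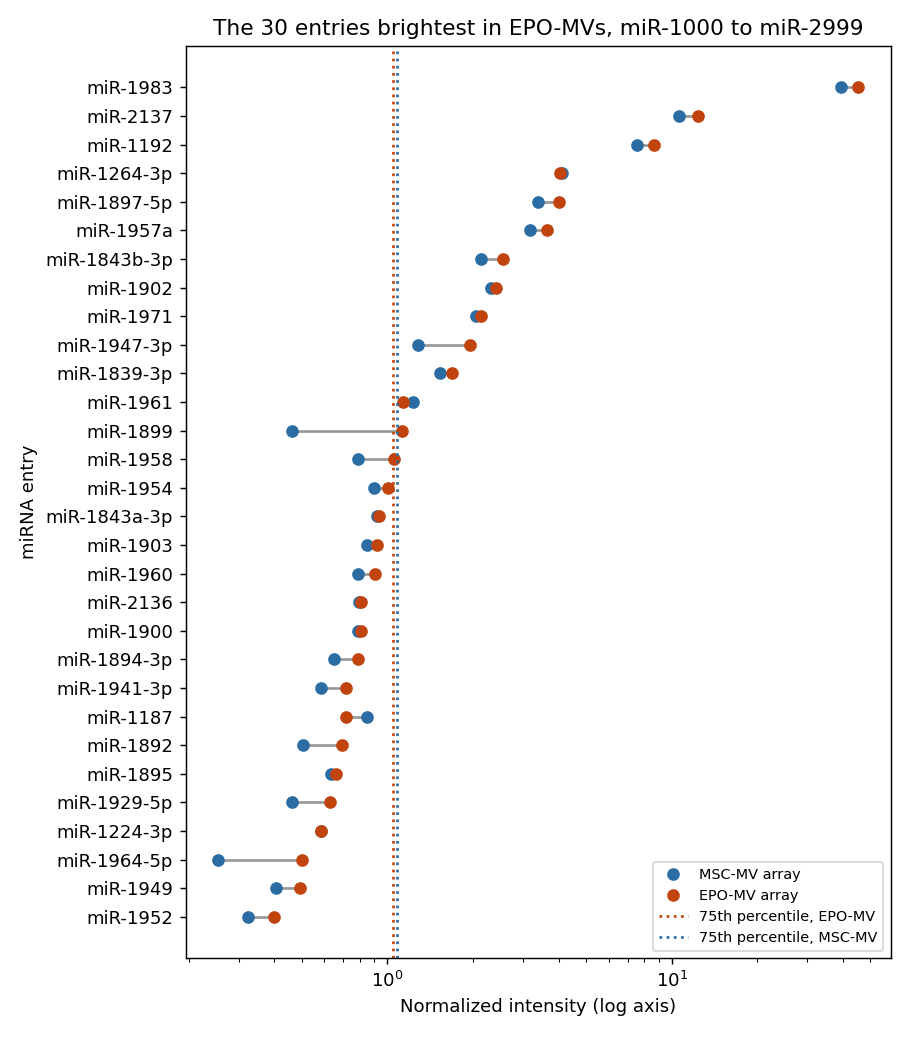
Normalized intensity (log axis) of the 30 entries of miR-1000 to miR-2999 that were brightest in EPO-MVs, with 1 point per array, EPO-MV in orange and MSC-MV in blue. Dotted lines mark the 75th percentile of all entries on each array. The 12 entries at the top pass both lines, and miR-1899 and miR-1958 pass only the line of the EPO-MV array.

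At the edge of this class, 2 members passed the 75th percentile in EPO-MVs only. They were miR-1899, with 1.12 in EPO-MVs against 0.463 in MSC-MVs, and miR-1958, within the chaperone gene Erp44, with 1.05 and 0.785. Just below it on both arrays lay miR-1954, with 1.00 and 0.897 (ratio 1.12), whose hairpin lies within Eng, the gene of the MSC surface protein endoglin (CD105). No member passed the line in MSC-MVs alone. With 12 of 86, or 14.0%, bright members were less frequent than bright entries among all (202 of 831, 24.3%), and among entries numbered 3000 and above 26 of 129 (20.2%) were bright. The median intensity of the 86 entries was 0.137 in EPO-MVs against 0.122 in MSC-MVs, against 0.206 and 0.195 over all 831. The 86 entries held 5.59% of the summed intensity of the EPO-MV array and 4.42% of that of the MSC-MV array, most of it in the 12 bright entries (4.60% and 3.67%).

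In the comparison of EPO-MVs with MSC-MVs, 23 of the 86 entries had a ratio of 1.5 or more, and 1 was lower in EPO-MVs by 1.5-fold or more. The shares were 26.7% and 1.16%, beside 17.8% higher and 7.58% lower over all 831 entries. The median ratio of the 86 entries was 1.203, or 0.27 on the log2 scale, against 1.04, or 0.05, over all entries. A ratio above 1 by any amount was seen in 68 of the 86 entries (79.1%), against 466 of 831 (56.1%). The count past 1.5-fold rested largely on dim entries, since 20 of the 23 lay below 60 steps on at least 1 array. A step is the smallest value of an array, of which all its other values are whole multiples, and 471 steps on the EPO-MV array or 447 on the MSC-MV array make a normalized intensity of 1. The split between directions also moved with the scaling, to 15 higher and 6 lower with quantile normalization and to 15 and 5 after removal of the lowess trend of ratio on intensity. Over all 831 entries the same scalings gave 95 higher and 95 lower, and 92 and 96. Members were thus higher in 17.4% under either scaling, beside 11.4% and 11.1% of all entries.

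Because dim entries in general had ratios above 1 on these arrays, the direction was also counted within 4 classes of nearly equal size, ordered by the mean log2 intensity of all entries. In the dimmest class 17 of 22 members (77.3%) had a ratio above 1, against 67.1% of the entries numbered under 1000. In the second class they were 21 of 28 against 90 of 143 (62.9%), and in the third 20 of 24 (83.3%) against 44.1%. In the brightest class, which holds the same 12 bright members, they were 10 of 12 (83.3%) against 55 of 160 entries under 1000 (34.4%) and 12 of 27 entries from 3000 upwards (44.4%). The entries under 1000 thus moved from mostly above 1 when dim to mostly below 1 when bright, while most of the members had a ratio above 1 in each class. Entries from 3000 upwards lay above the members in the second class, with 81.2%, and below them in the other classes. Of the 202 entries bright on both arrays, 76 (37.6%) had a ratio above 1. These counts are a description of a pair of arrays, and whether the groups differ was not tested.

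**Figure D2:**
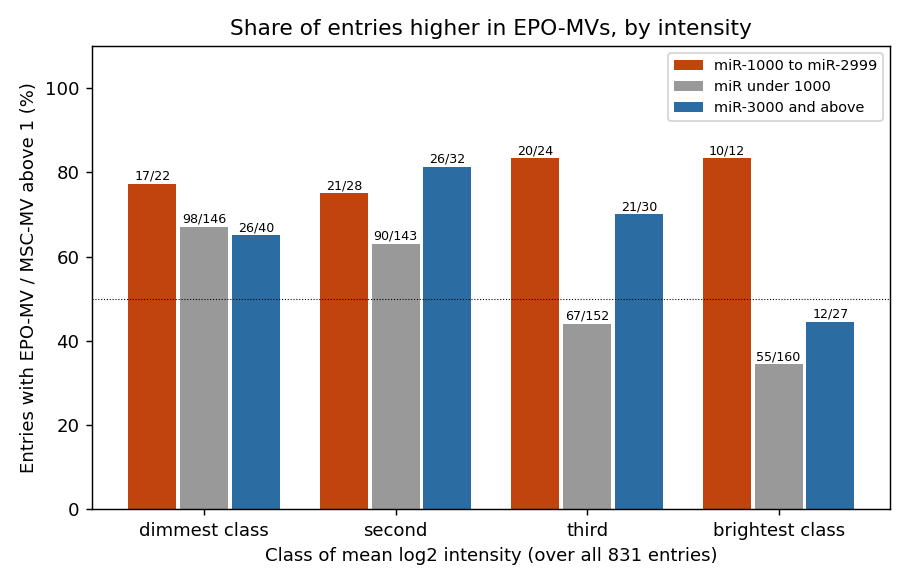
Percent of entries with an EPO-MV over MSC-MV ratio above 1 in 4 classes of mean log2 intensity, for miR-1000 to miR-2999 (orange), miRNAs under 1000 (grey) and from 3000 upwards (blue), with counts over each bar. The orange bars lie between 21 of 28 entries and 83.3%, and the grey bars go from 67.1% in the dimmest to 34.4% in the brightest class.

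The direction of the bright members was followed through 4 other scalings. The number above 1 was 10 of 12 as deposited and after re-centring on the median ratio, 12 of 12 with quantile normalization, and 11 of 12 after scaling to the 75th percentile and after removal of the lowess trend. Over the 202 bright entries it was 76 as deposited, 56 after re-centring, 100 with quantile normalization, 94 after scaling to the 75th percentile and 107 with lowess. The ratio of miR-1264-3p crossed 1, to 1.05 with quantile normalization, 1.02 with the 75th percentile and 1.07 with lowess, and that of miR-1961 crossed it with quantile normalization (1.02). The other 10 bright members stayed above 1 under each of these scalings, although miR-1902 and miR-1971 came down to 1.01 and 1.00 after re-centring.

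**Figure D3:**
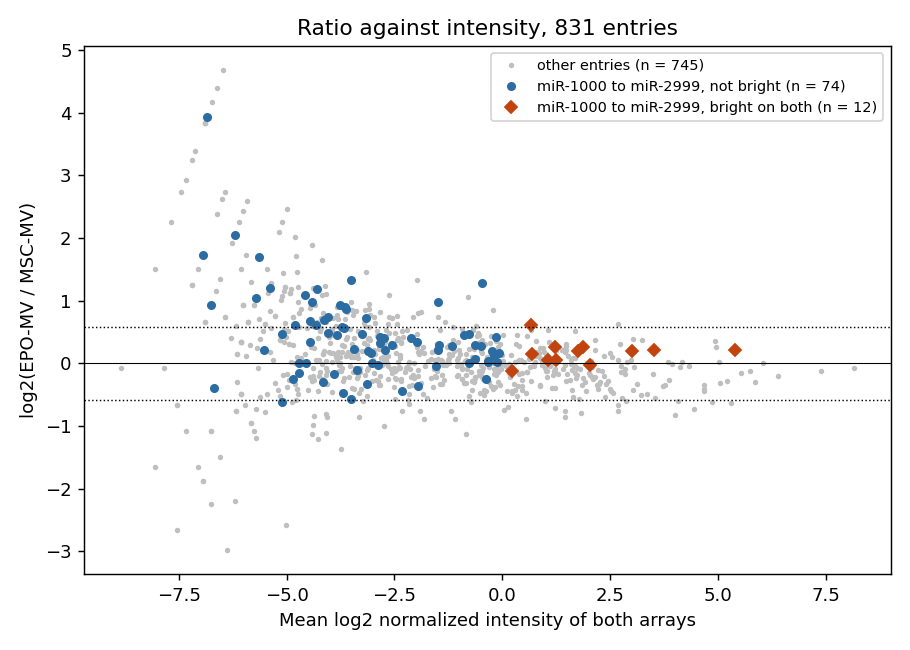
log2 of the EPO-MV over MSC-MV ratio against the mean log2 intensity of both arrays, 1 point per entry, with members in colour and the other 745 entries in grey. Dotted lines mark 1.5-fold. The spread of ratios widens towards dim entries, and the bright members lie between ratios of 0.921 and 1.53.

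The members with the largest ratios among those with at least 60 steps on both arrays were miR-1899, miR-1964-5p and miR-1947-3p. For miR-1899, chr9:8246796-8246817, plus strand, in GRCm38.p6, no other annotated gene overlaps the strand. It measured 529 steps in EPO-MVs against 207 steps in MSC-MVs, a ratio of 2.43. The sequence is shown because this is the largest ratio among members with at least 60 steps on both arrays.
miR-1899: aGCGAUGGccgaaucugcuucc

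For miR-1964-5p, within the zinc finger gene Zfp84, the intensities were 235 and 113 steps (ratio 1.97). Next came miR-1892, within Sptssa, a subunit gene of serine palmitoyltransferase, with 327 and 225 steps (ratio 1.38), and miR-1929-5p, within the autophagy gene Atg5, with 296 and 206 steps (ratio 1.36). Only miR-1899, miR-1964-5p and miR-1947-3p passed 1.5-fold among the 39 members with at least 60 steps on both arrays, and none of the 39 was 1.5-fold lower. Over all 463 entries with at least 60 steps on both arrays, 15 were higher and 25 lower.

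The lowest ratios in that brighter set were 0.739 for miR-1843b-5p (81 and 104 steps), 0.776 for miR-1231-3p (108 and 132 steps) and 0.841 for miR-1187 (336 and 379 steps). Then came miR-1961, given above, and miR-2861 (0.973). Known to promote osteoblast differentiation in mice, miR-2861 had 160 steps in EPO-MVs against 156 in MSC-MVs. Its probe signal was thus near the same on both arrays, with no replicate to give the difference an interval.

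Among all 86 entries the largest ratio was that of miR-1298-3p, 15.2, from 16 steps in EPO-MVs against 1 step in MSC-MVs. It was the only member at 1 step, the smallest deposited value of an array, and none was at 1 step in EPO-MVs. The next ratios also came from a few steps, with 13 against 3 for miR-1251-5p (4.11), 7 against 2 for miR-1969 (3.32) and 17 against 5 for miR-1306-3p (3.23). For miR-1946b the values were 66 and 25 steps (2.51). With a pseudocount of 0.0573 added to both arrays, the ratios of miR-1251-5p, miR-1969 and miR-1306-3p came down to 1.33, 1.17 and 1.36, and 5 members (5.81%) stayed at 1.5-fold or more, beside 29 of all 831 entries (3.49%). These were miR-1899 (2.27), miR-1964-5p (1.79), miR-1946b (1.74), miR-1298-3p (1.53) and miR-1947-3p (1.51). At the other end, the one member past 1.5-fold lower was miR-1188-5p, with 11 steps in EPO-MVs against 16 in MSC-MVs (ratio 0.652). It was followed by miR-1981-5p (34 and 48 steps, ratio 0.672), miR-1933-3p (31 and 41 steps, ratio 0.718), miR-1843b-5p (0.739, given above) and miR-1190 (4 and 5 steps, ratio 0.759).

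By arm, 21 members were named 5p, 23 were named 3p and 42 carried no arm. Of the 12 bright members, 1 was a 5p entry, 4 were 3p entries and 7 had no arm in their name. A ratio above 1 was seen in 15 of the 5p entries, 18 of the 3p entries and 35 of those without an arm, and the median ratios were 1.36, 1.23 and 1.16. In the same order, 6, 9 and 8 entries passed 1.5-fold as higher in EPO-MVs. Over all entries of the same kind on the arrays, 59 of 351 (16.8%) did so for 5p, 66 of 351 (18.8%) for 3p and 23 of 129 (17.8%) without an arm, and the shares above 1 were 51.6%, 56.7% and 66.7%. The median ratios over all these entries were 1.01, 1.05 and 1.12, in the reverse order of those of the members. Bright entries were not counted by arm over all entries. Among the members, the unnamed arms had the highest median intensity, 0.312 in EPO-MVs, against 0.102 for 5p and 0.144 for 3p entries. Arm and intensity were thus not separated in these ratios.

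Both arms were on the arrays for 15 hairpins. The ratios of both arms lay above 1 in 7 of them and on opposite sides of 1 in 8, and in none did both lie below 1. Of all 86 members, 79.1% had a ratio above 1. Hairpins of the other entries were not counted, so these numbers have no background to be set against. In 8 hairpins the ratios of the arms were within 1.5-fold of each other. For miR-1964 they were 1.97 for the 5p and 1.90 for the 3p arm, for miR-1982, within the gene of the polyamine regulator Oaz1, 2.30 and 2.06, and for miR-1912 1.00 and 0.999. The arms lay further apart in 7 hairpins. For miR-1188 the ratio was 0.652 for the 5p and 1.53 for the 3p arm, and for miR-1843b it was 0.739 and 1.196. The 3p arm of miR-1188 had 21 and 13 steps, so both arms of this hairpin were dim.

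**Figure D4:**
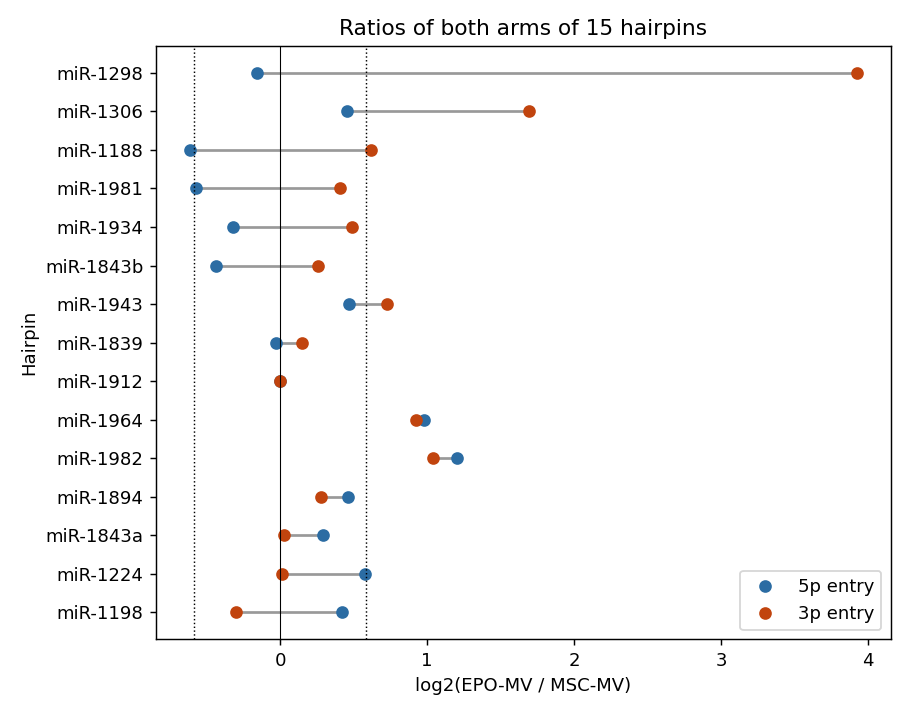
log2 of the EPO-MV over MSC-MV ratio for the 5p (blue) and 3p (orange) entries of 15 hairpins, ordered by the difference between the arms. Dotted lines mark 1.5-fold. The arms of miR-1298 lie furthest apart, at ratios of 0.896 and 15.2, and the 3p value there rests on 1 step in MSC-MVs.

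By genomic origin, members were followed in 4 lists that were chosen with earlier results of these data known. From the imprinted Dlk1-Dio3 region, which holds a large cluster of maternally expressed miRNAs, 3 of 4 listed miRNAs were measured, as 4 entries, all dim. Of these, miR-1193-3p had 36 and 15 steps (ratio 2.28), miR-1247-5p had 27 and 16 steps (ratio 1.60), and both arms of miR-1188 are given above, so that 3 of the 4 entries were past 1.5-fold higher and 1 lower. All 4 lay in the dimmest intensity class, in which 46.2% of all entries were higher and 14.9% lower by that measure. With quantile normalization or lowess only miR-1193-3p of the 3 stayed past 1.5-fold higher, and with the pseudocount none did and miR-1188-5p came to 0.866. From the miRNAs within the gene Htr2c, all 3 listed miRNAs were measured, as 5 entries with a median ratio of 0.999. There miR-1264-3p was bright, while miR-1298-5p had 17 and 18 steps, miR-1912-5p had 58 and 55 and miR-1912-3p had 20 and 19. The fifth entry was miR-1298-3p, given above with the largest ratio of all members (15.2).

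The third list held miRNAs with an unusual origin, as 6 entries. Of these, 5 had a ratio above 1, beside 79.1% of all members and 56.1% of all entries. The mirtron miR-1224, a short spliced intron of Vwa5b2 that needs no Drosha cut, had 276 and 260 steps for its 3p arm (ratio 1.01) and 44 and 28 for its 5p arm (ratio 1.49). The hairpin miR-1306 lies in Dgcr8, the gene of the protein that helps Drosha cut miRNA hairpins. The values of its 5p arm were 39 and 27 steps (ratio 1.37), beside the 3p arm given above. The 5p arm of miR-1839 had 63 and 61 steps (ratio 0.980), beside its bright 3p arm. The last list held only miR-2861.

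A mature sequence was found in RefSeq under the name of 71 of the 86 entries (82.6%). Of these 71, 49 overlap a protein-coding gene and no small RNA gene, 5 overlap a gene of another small RNA, 4 overlap another kind of gene and 13 overlap none. The strand of those genes was not compared with that of the miRNA. The 5 entries in small RNA genes were miR-1983 and both arms of miR-1843a and miR-1843b, which lie entirely within Scarna3b and Scarna3a. Their ratios ran from 0.739 to 1.22, and 4 of the 5 were above 1, beside 79.1% of all members and 56.1% of all entries. The 5p strands of miR-1843a and miR-1843b share a run of 20 of their 21 bases, and their ratios were 1.22 and 0.739. Whether their probes tell these strands apart was not tested. The 3p strands share only a run of 9 bases, and miR-1843a-3p had 0.934 in EPO-MVs against 0.919 in MSC-MVs (ratio 1.02).

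All 71 sequences had different seeds, so no seed is shared among the members that have a sequence. The seeds of the other 15 members were not compared. Only 3 of the 71 share a seed with another of the 679 entries that have a sequence. The seed of miR-1961 is that of let-7, a family that restrains proliferation genes, and miR-1961 shares a run of 13 of its 17 bases with let-7g-5p. The latter is shown for comparison with the miR-1961 strand printed above.
let-7g-5p, chr9:106178846-106178867, plus strand: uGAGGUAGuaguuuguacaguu

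The 9 other entries with this seed, let-7 and miR-98-5p, all had ratios below 1, from 0.578 to 0.854, and let-7g-5p had 13.4 in EPO-MVs against 16.1 in MSC-MVs (ratio 0.832). With 0.921, miR-1961 lay nearer to 1 than any of them and was 1 of the 2 bright members below 1. Whether its probe also binds let-7 was not tested. The seed of miR-1947-3p is shared with miR-674-5p, which had 1.21 and 1.57 (ratio 0.774), and with the dim miR-3473d (ratio 0.994), both below the ratio of 1.53 of miR-1947-3p. The seed of miR-1983 is shared with the dim miR-412-3p, which had 0.0722 in EPO-MVs against 0.0783 in MSC-MVs (ratio 0.922).

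The mature sequences of the members were rich in G and C, with a median of 58.3% over 71 sequences against 47.8% over 608 sequences of the other entries. They ranged from 27.3% for miR-1192 to 94.7% for miR-2861. Across the 71 members, GC content and the log2 ratio had a Spearman correlation of 0.231, and across all 679 entries with a sequence it was 0.240. Across the 8 bright members with a sequence it was 0.738, with 4 of 4 above a ratio of 1 at 50% GC or more and 2 of 4 below that content. Across the 153 other bright entries it was 0.276, with 43.3% and 30.1% above 1 at these contents. Mean log2 intensity and the log2 ratio had one of -0.349 across the members and -0.344 across all 679 entries. These correlations are across entries that share the same pair of arrays. Of the members with at least 50% GC, 43 of 52 (82.7%) had a ratio above 1, against 236 of 349 (67.6%) over all entries with that GC content. Below 50% GC they were 12 of 19 (63.2%) against 154 of 330 (46.7%). The share above 1 was thus higher at high GC content in the members and over all entries alike, and it was higher in the members at either GC content. The part of GC content in the ratios was not tested.

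**Figure D5:**
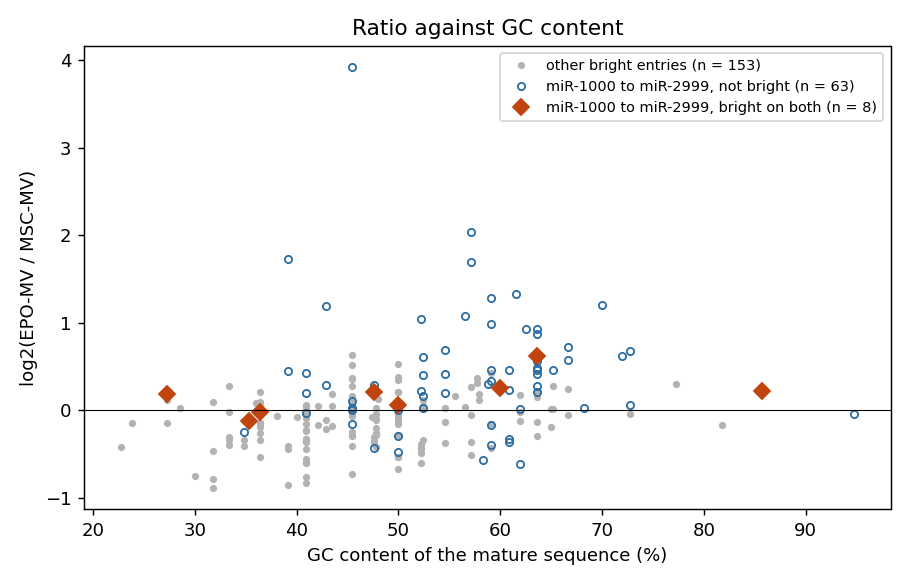
log2 of the EPO-MV over MSC-MV ratio against the GC content of the mature sequence, for 8 bright members (orange), 63 other members (open blue) and 153 other bright entries (grey). Among the bright members the lowest ratio, 0.921, lies at 35.3% GC and the highest, 1.53, at 63.6% GC.

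As a check of the labelled cells, 8 of 8 listed stromal miRNAs, among them miR-143-3p and miR-21a-5p, were bright on both arrays, with EPO-MV intensities from 7.03 to 78.9. All 8 had ratios below 1 (0.563 to 0.873), while 37.6% of all bright entries had a ratio above 1. Their summed intensity was 223 in EPO-MVs against 291 in MSC-MVs. Of 7 listed blood cell miRNAs, 4 were also bright, with a summed intensity of 67.6 in EPO-MVs against 80.0 in MSC-MVs over the list, led by miR-142-3p (44.0 and 48.9). The 4 bright ones had ratios below 1, while the other 3 had ratios above 1, namely miR-144-3p (1.75), miR-150-5p (1.36) and the entry shared by miR-486-5p and miR-3107-5p (1.34). The 3 epithelial miRNAs measured were at 0.144 or less on both arrays, with ratios of 1.90 for miR-141-3p, 1.50 for miR-200b-3p and 2.85 for miR-200c-3p. The part of these other RNAs, or of the serum in the medium, in the values of the members was not tested.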

How the data were processed

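Total RNA of EPO-MVs and MSC-MVs was labelled and hybridized to miRCURY LNA arrays, 1 array each. The deposited values are linear intensities that the authors had scaled array by array. Spots of 1 miRNA were merged into a mean, and the scaling was by the median, with dim miRNAs (under 30 on any array) kept out of the factor. The channel read, any background correction and the selection of entries are not given in the sources used here. The deposited file names no genome build.

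For each of the 831 entries the EPO-MV intensity was divided by the MSC-MV intensity, without a pseudocount or a filter. Members and lists were chosen with earlier results of these data known. The 1.5-fold threshold is the one used in the study. Multiplying by 471 (EPO-MV) or 447 (MSC-MV) gave whole steps to within 2e-05. Named entries were all bright members, the 5 highest and 5 lowest ratios among all members and among members with at least 60 steps on both arrays, both-arm hairpins, members near the bright threshold and the lists. Other entries, and the repeated stretch of miR-1192, were chosen after their values were seen. Mature sequences and overlapping genes came from RefSeq (GRCm38.p6), matched by name. Alternatives were other fold thresholds, filters on dim entries, re-centring, quantile normalization, scaling to the 75th percentile, lowess (span 0.4, 3 iterations) and a pseudocount equal to the 25th percentile over both arrays. The counting code was checked on simulated data without noise, which says nothing about the error of the counts. The number of arrays limits the precision. Python 3.11.15, pandas 2.3.3, numpy 2.4.6, scipy 1.17.1 and statsmodels 0.14.6 were used.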

Additional observations from a re-analysis of the deposited data

How the results depend on the processing

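The number of members at least 1.5-fold higher in EPO-MVs, 23 as deposited, was 10 at a threshold of 2 (11.6%, beside 8.06% of all entries) and 43 of 86 at 1.2 (beside 278 of 831). With fewer entries counted it was 3 of 36 above the median of mean log2 intensity (8.33%, beside 3.13%), 4 of 53 with at least 30 steps on both arrays (7.55%, beside 5.93%) and 3 of 39 with at least 60 (7.69%, beside 3.24%). It was 15 with quantile normalization, 15 with lowess and 5 with the pseudocount (5.81%, beside 3.49%), which shrinks dim ratios by construction. The 15 members under lowess and the 15 under quantile normalization were all among the 23. The number at least 1.5-fold lower, 1 as deposited, was 0 at a threshold of 2, above the median, with at least 30 or 60 steps, after scaling to the 75th percentile and with the pseudocount. Over all entries it was 21 of 831 at a threshold of 2 and 25 of 415 above the median. With at least 30 or 60 steps it was 28 of 573 and 25 of 463 there. It was 52 of 831 after scaling to the 75th percentile and 25 of 831 with the pseudocount. Among members it was 8 at a threshold of 1.2, 2 after re-centring, 6 with quantile normalization and 5 with lowess. Over all 831 entries these settings gave 182, 71, 95 and 96. The number of bright members, 12, was 35 with the median and 4 with the 90th percentile as the limit, by construction. How many of all 831 entries pass these other limits on both arrays was not counted. The median log2 ratio of 0.27 stayed between 0.19 and 0.32 under the alternatives run. Leaving out entries at 1 step and following the bright members through other scalings were chosen after seeing the data. Except where the construction shows it, the cause was not tested. No paired analysis was possible because each group had 1 array. The data hold no background measurement, so no dim member can be set above or below background.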
